A study of Rattus norvegicus with 21 samples.

Results

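Ionotropic glutamate, GABA and glycine receptors are ion channels that open when a transmitter binds, and their subunits are encoded by families of related genes. The genes were chosen by symbol: Gria, Grik, Grin and Grid for glutamate receptors, Gabr for GABA receptors, and Glra and Glrb for glycine receptors. The rule found 42 of the 19099 genes in the table, and 40 of them passed the filter on low counts and were tested among 16006 genes. Gabra6 and Gabrp, the alpha6 and pi subunits of GABA-A receptors, did not pass, with at most 5 counts in any library.

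RNA came from retinas of Sprague Dawley rats after 6 months of light exposure, at an age of 8 months. The 7 groups of 3 libraries were halogen light at level 1000 (Hal1000) and 200 (Hal200), blue light at 1000 (Blue1000) and 200 (Blue200), the lamp labelled LED, which the design text calls white, at 1000 (LED1000) and 200 (LED200), and a control. The unit of the level and the light of the control rats are not given, and no allele or drug is named in any group. Whether each library is a separate rat is not given either, so a p-value here weighs a difference against library spread that may be technical.

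Photoreceptors release glutamate onto OFF bipolar cells and horizontal cells, which receive it through AMPA and kainate receptors, while ON bipolar cells use a metabotropic receptor. Bipolar cells release glutamate onto amacrine and ganglion cells, which carry AMPA and NMDA receptors. Amacrine cells return GABA and glycine to bipolar, amacrine and ganglion cells through GABA-A receptors, rho-type GABA receptors and glycine receptors.

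The makeup of the retina differed between groups. The summed level of 18 rod genes was 36130 to 60820 CPM (counts scaled to library size) in Hal200 and 775.7 to 3052 CPM across the remaining 5 light groups, against 71740 to 78240 CPM in control libraries. Bipolar cell genes (20 genes) summed to 2878 to 3694 CPM in Hal200 and 3585 to 4949 CPM across those 5, against 2655 to 2909 CPM in control libraries. Amacrine cell genes summed to 3377 to 4066 CPM in Hal200 and 5229 to 5818 CPM across those 5, against 2874 to 2901 CPM in control libraries. Ganglion cell genes summed to 1571 to 2060 CPM in Hal200 and 2343 to 2805 CPM across those 5, against 1159 to 1273 CPM in control libraries. Horizontal cell genes summed to 606.4 to 717.1 CPM in Hal200 and 860.6 to 1010 CPM in those 5, against 536.8 to 554.5 CPM in control libraries. Microglia genes summed to 77.69 to 223.9 CPM in Hal200 and 108.6 to 262.5 CPM in those 5, against 48.25 to 64.28 CPM in control libraries. Astrocyte genes summed to 368 to 817.5 CPM in Hal200 and 735 to 1245 CPM in those 5, against 279.9 to 490.8 CPM in control libraries. Müller cell genes summed to 7723 to 9679 CPM in Hal200 and 10570 to 13370 CPM in those 5, against 6885 to 8425 CPM in control libraries. Cone genes summed to 1164 to 1261 CPM in Hal200 and 829.4 to 1426 CPM in those 5, against 748.2 to 828.1 CPM in control libraries. Pigment epithelium genes summed to 29.42 to 104.1 CPM in Hal200 and 437.5 to 1511 CPM in those 5, against 30.14 to 192.8 CPM in control libraries. No listed marker was at 0 in every library. In bulk RNA, fewer cells of a type and less RNA per cell cannot be told apart. Receptor levels are therefore given relative to all genes (TMM scaling) and relative to the bipolar gene list (bipolar scaling), and the part of cell composition in any result was not tested. Lens genes reached 9593 CPM in Blue200 library 1, 4719 in control library 3 and 3816 in LED200 library 1, called the 3 lens-rich libraries. Blue1000 libraries 1 and 3 had 2199 and 1166 CPM, and leaving out the lens-rich libraries keeps both. The 3 in-between libraries were Hal1000 library 3, Blue1000 library 3 and LED1000 library 2. They lay between their mates for 98.8%, 97.9% and 95.6% of the genes in which those mates differed by over 2-fold. Total counts were 30404774 to 35437448 per library, and 3 counts, the limit that a count of 0 allows, equal 0.0847 to 0.0987 CPM, for counting error only.

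Promoter sequences were available for 28 of the 42 genes (RefSeq, build GRCr8, 250 bases before to 50 after the start). A set of 3 is shown, to set the kainate receptor gene with the highest fold change and a GABA-A receptor gene that rose in all 6 light groups beside an NMDA receptor gene that rose in none. Capitals mark GGGCGG, the GC box bound by Sp1, on either strand.
Grik3, chr5:143052192-143052491, plus strand: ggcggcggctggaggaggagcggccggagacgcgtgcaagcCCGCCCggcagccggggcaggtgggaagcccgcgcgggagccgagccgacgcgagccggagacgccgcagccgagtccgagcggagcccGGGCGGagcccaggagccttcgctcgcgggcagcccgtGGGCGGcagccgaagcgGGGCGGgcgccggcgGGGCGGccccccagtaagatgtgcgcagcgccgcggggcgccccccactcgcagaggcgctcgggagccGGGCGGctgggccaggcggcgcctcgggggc
Gabrd, chr5:171252660-171252959, minus strand: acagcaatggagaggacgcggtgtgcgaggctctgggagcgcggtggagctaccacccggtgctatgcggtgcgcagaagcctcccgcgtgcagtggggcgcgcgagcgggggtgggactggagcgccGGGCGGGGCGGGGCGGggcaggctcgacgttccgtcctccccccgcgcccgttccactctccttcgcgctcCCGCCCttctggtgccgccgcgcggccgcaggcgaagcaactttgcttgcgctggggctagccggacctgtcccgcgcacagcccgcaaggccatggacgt
Grin2d, chr1:105481187-105481486, minus strand: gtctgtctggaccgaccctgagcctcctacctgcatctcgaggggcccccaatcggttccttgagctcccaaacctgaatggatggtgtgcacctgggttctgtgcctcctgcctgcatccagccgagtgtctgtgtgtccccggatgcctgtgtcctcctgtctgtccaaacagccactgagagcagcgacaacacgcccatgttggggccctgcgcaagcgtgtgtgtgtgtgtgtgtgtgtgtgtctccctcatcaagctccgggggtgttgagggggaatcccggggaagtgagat
GGGCGG occurred 6 times in the Grik3 window, 4 times in the Gabrd window and 0 times in the Grin2d window, counted on both strands with overlaps allowed. The windows held 49, 40 and 11 CpG dinucleotides. The median CpG count was 11 over the 28 receptor promoters and 7 over all promoters. GGGCGG was present in 12 of the 28 receptor promoters (42.9%) and in 34.9% of all 27457 promoters of that length. Among those 12 were Gabra5, Gabre and Gabrq, which were called in no light group against control. TAATCC, the core bound by the homeodomain factors CRX and OTX, was in 3 of the 28 (10.7%; Gabrr2, Gabrr3 and Glra3) and in 7.11% of all. TGACGTCA, the CREB palindrome, and CACGTG, the E-box palindrome, were in 0 of the 28, against 1.91% and 6.65% of all. These matches describe the letters of the windows only. The 3 windows shown were chosen by how their genes moved, and a link between a motif and a rise was not tested. In GRCr8 several receptor genes lie side by side, among them Gria2 and Glrb, Gabrb1 and Gabra4, Gabra2 and Gabrg1, and Gabrr2 and Gabrr1.

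Against control, receptor genes were higher in every light group on the TMM scale and none was lower, while on the bipolar scale the calls were few and went both ways. By edgeR's quasi-likelihood test (Benjamini-Hochberg adjusted p under 0.05), 29 of 40 receptor genes were higher in Hal1000, where 27.3% of all tested genes were higher. The number lower was 0 in Hal1000, Hal200, Blue1000, Blue200, LED1000 and LED200, where 26.8%, 4.6%, 26.9%, 25.8%, 26.8% and 25.7% of all tested genes were lower. The numbers higher were 12 in Hal200 (background 7.25%), 33 in Blue1000 (27.4%), 27 in Blue200 (27.7%), 22 in LED1000 (27.7%) and 31 in LED200 (26.5%). The median log2 fold change of the 40 genes was 0.68 in Hal1000, 0.32 in Hal200, 0.77 in Blue1000, 0.63 in Blue200, 0.45 in LED1000 and 0.78 in LED200. Over all tested genes it was 0.026, -0.0057, 0.035, 0.077, 0.067 and 0.049 in the same groups. These 6 comparisons share the 3 control libraries. In all 6, 12 genes were higher (among them Gabra3, Gabrd, Glra2, Glrb, Gria4, Grik1, Grik2, Grik3, Grik5 and Grin1), and 7 genes were called in none (Gabra5, Gabre, Gabrq, Grin2a, Grin2c, Grin2d and Grin3b). The share of all tested genes called in all 6, or in none, was not computed. Whether these counts are particular to receptor genes is therefore not known.

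**Figure D1:**
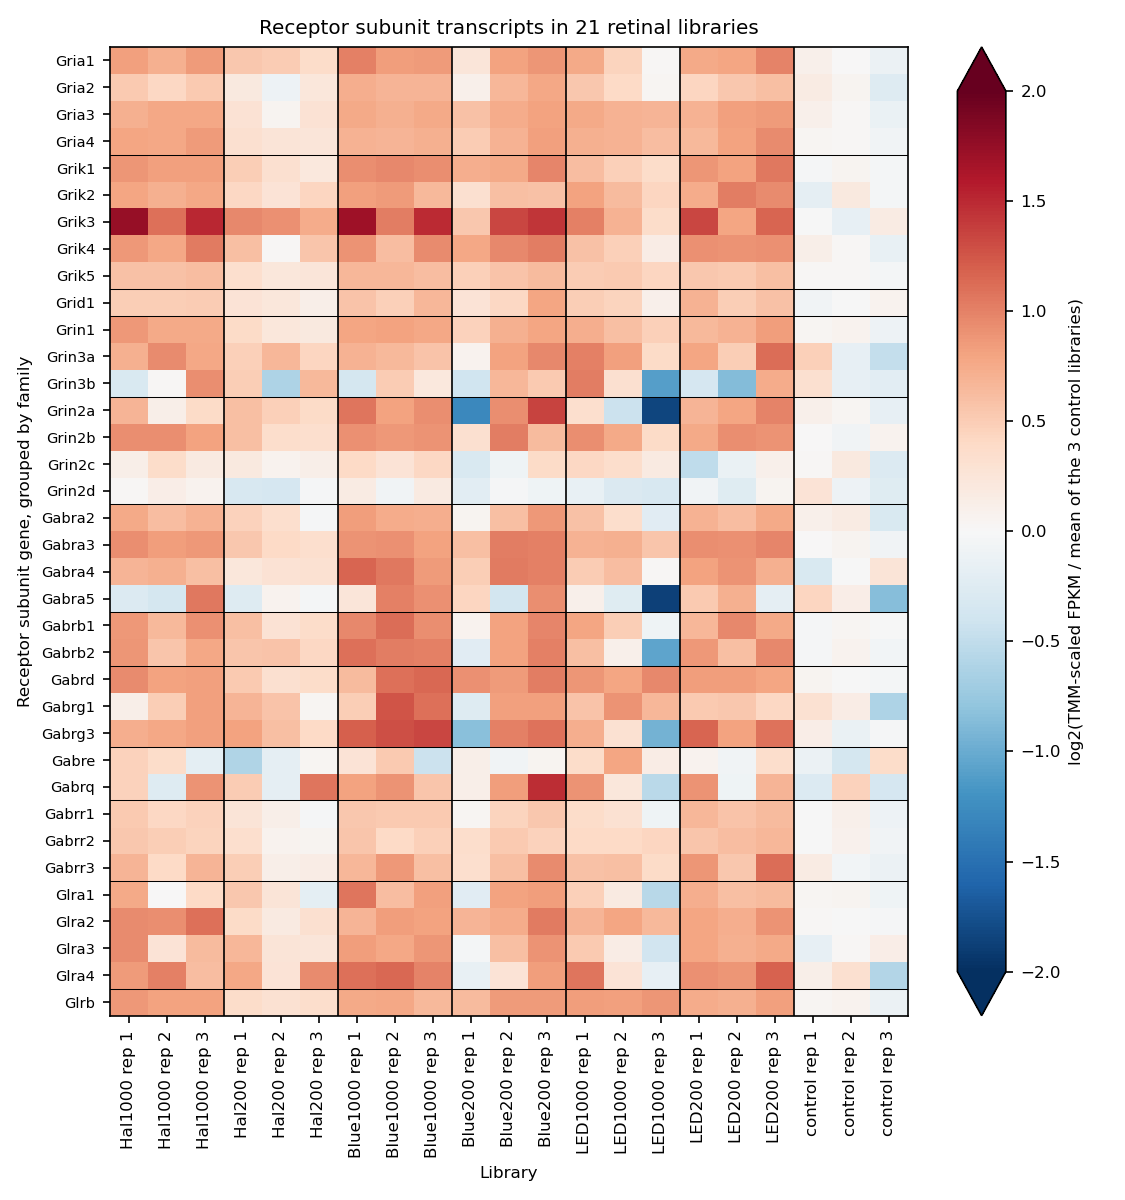
Log2 ratio of TMM-scaled FPKM to the mean of the 3 control libraries for 36 receptor genes (rows, by family) in 21 libraries (columns, 7 groups of 3). Most genes stand above control in the 18 light libraries on this scale, and Blue200 library 1 and LED1000 library 3 lie below their mates. On this scale 25 of them are called higher in Hal1000 and 10 in Hal200 (27.3% and 7.25% of all tested genes). The bipolar scale gives 3 and 1 higher (4.14% and 1.81% of all tested genes) and 4 and 1 lower (57.4% and 19.9%).

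The Hal200 count moved with the libraries and the fit. It was 0 by edgeR with Hal200 and control fitted alone (background 0%), where 18 were higher at an unadjusted p under 0.05. It was 14 by DESeq2 in the fit to all libraries (background 8.99%). With the size factors of DESeq2 in edgeR it was 8 (6.66%), with no filter 8 (5.66%) and without the 3 lens-rich libraries 8 (9.93%). The share of all genes at an unadjusted p was not computed, here or for later counts at that limit. It was 6 without the 3 in-between libraries (background 3.98%) and 19 without Blue200 library 1 and LED1000 library 3 (11%). It was 2 without Hal200 library 1 (1.95%), 5 without Hal200 library 2 (3.4%), 4 without control library 1 (3.48%), 6 without control library 2 (3.41%) and 6 without control library 3 (7.24%).

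Bipolar scaling moves the median of all genes by -0.71 to -0.23 on the log2 scale. Receptor genes called higher and lower then numbered 4 and 4 in Hal1000 (background 4.14% and 57.4%), 2 and 1 in Hal200 (1.81% and 19.9%), and 5 and 2 in Blue1000 (4.35% and 56%). They numbered 6 and 3 in Blue200 (4.38% and 52.1%), 4 and 2 in LED1000 (6.59% and 48.1%), and 3 and 2 in LED200 (2.61% and 57.8%). The median of the 40 genes was -0.0086, 0.088, 0.12, 0.0063, -0.064 and 0.065 in these groups. Grik3 was called higher on the bipolar scale in 4 (Hal1000, Hal200, Blue1000 and Blue200), and Grin2d was called lower on it in all 6.

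**Figure D2:**
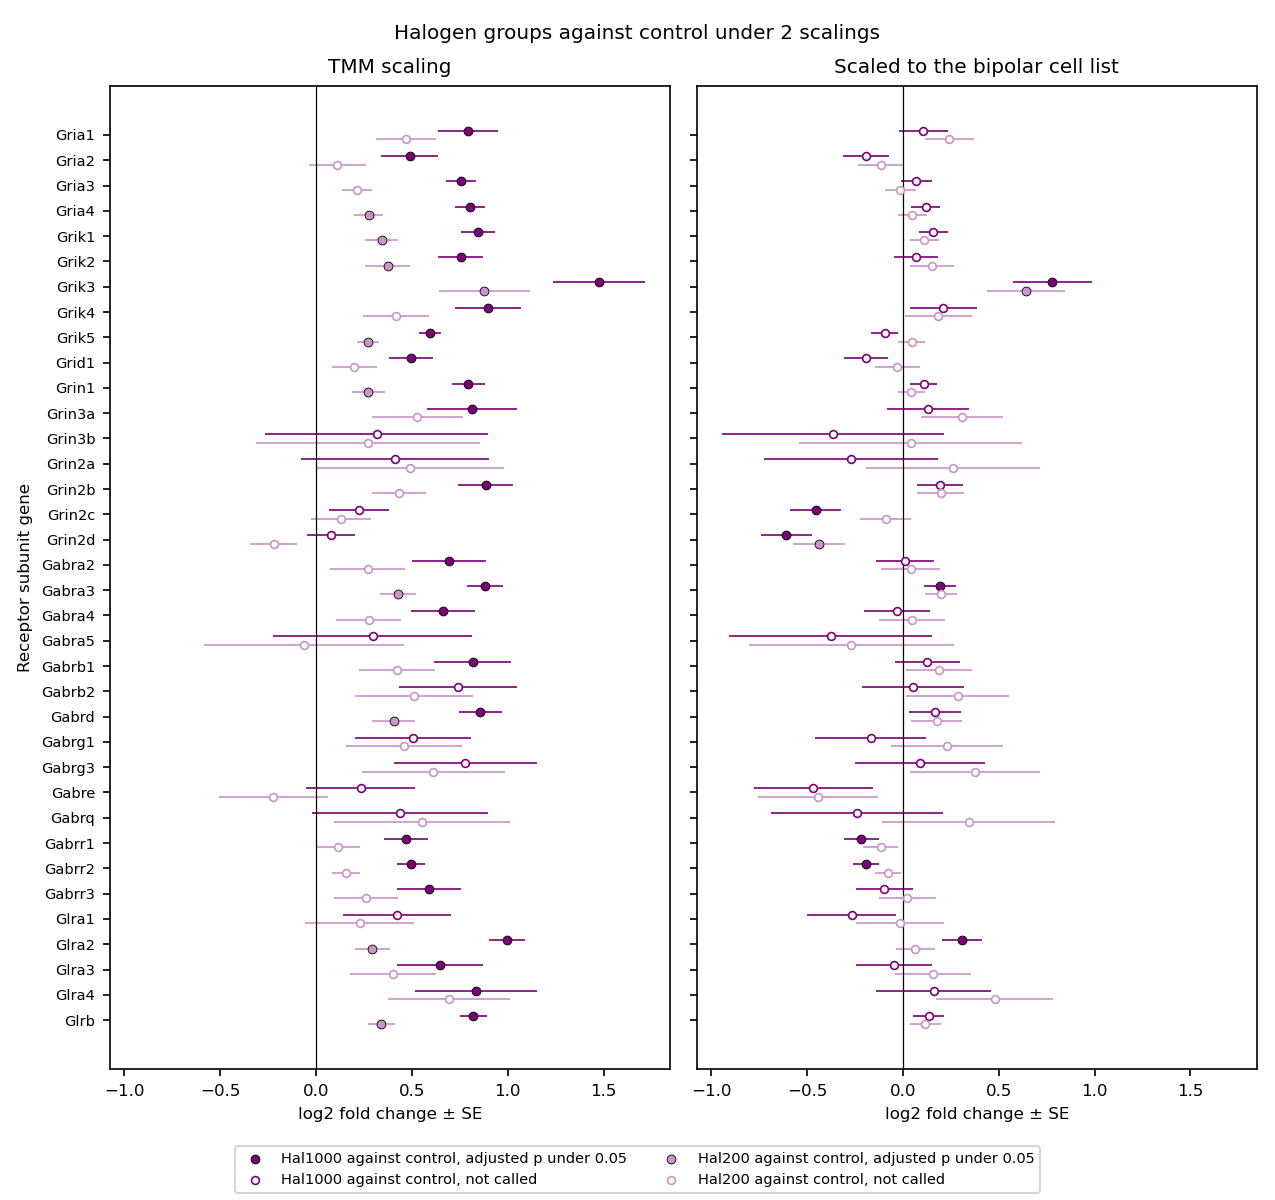
Log2 fold change with its SE (horizontal axis) of 36 receptor genes (rows) in Hal1000 and Hal200 against control, on the TMM scale (left) and the bipolar scale (right), with filled points for adjusted p under 0.05. On the TMM scale 25 and 10 of them are called higher (27.3% and 7.25% of all tested genes). On the bipolar scale 3 and 1 are called higher (4.14% and 1.81% of all tested genes) and 4 and 1 lower (57.4% and 19.9%).

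AMPA receptors carry fast excitation, and their 4 genes were all higher in Hal1000, Blue1000, Blue200 and LED200, with 3 of 4 in LED1000 and 1 of 4 in Hal200, while on the bipolar scale 0 were called except Gria3 in LED1000. Gria2, the most abundant of them per length, encodes the subunit whose edited form keeps calcium out. Gria2 stood at 38.9, 36.2 and 39.01 TMM-scaled FPKM in Hal1000, 30.9, 25.3 and 31.7 in Hal200, 44.8, 43.5 and 43.2 in Blue1000, 29.1, 43.1 and 46.5 in Blue200, 39.4, 35.9 and 28 in LED1000, 36.5, 39.4 and 41.3 in LED200, against 30.5, 28.2 and 22.6 in control libraries. Hal200 library 2, Blue200 library 1 and LED1000 library 3 lay inside the control range, and the other light libraries lay above it. The log2 fold change of Gria2 was 0.49 ± 0.15 (SE, adjusted p = 0.00981) in Hal1000 and 0.11 ± 0.149 (SE, adjusted p = 0.679) in Hal200, and on the bipolar scale -0.19 and -0.11.

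Gria3 and Gria4 encode further AMPA subunits, and both were among the 4 largest differences between the halogen levels. Gria3 had 19.4, 20.4 and 20.3 TMM-scaled FPKM in Hal1000, 14.5, 12.3 and 14.4 in Hal200, 20.2, 19.5 and 20.1 in Blue1000, 17.9, 19.8 and 20.7 in Blue200, 20.1, 19.2 and 19.03 in LED1000, 19.1, 20.9 and 21.5 in LED200, against 12.8, 12.1 and 10.8 in control libraries. All light libraries but Hal200 library 2 lay above the control range. Gria3 rose by 0.76 ± 0.0781 (SE, adjusted p = 1.59e-07) in Hal1000, and its difference in Hal200 was 0.21 ± 0.0779 (SE, adjusted p = 0.0804). Bipolar scaling gave 0.070 (adjusted p = 0.473) in Hal1000. Gria4 was at 20.8, 20.6 and 21.7 TMM-scaled FPKM in Hal1000, 14.9, 14.4 and 14.3 in Hal200, 19.4, 19.2 and 19.7 in Blue1000, 17.1, 19.5 and 21.2 in Blue200, 19.6, 19.4 and 18.5 in LED1000, 18.8, 21.1 and 23.1 in LED200, against 12.3, 12.2 and 11.4 in control libraries. No light library overlapped the control range, and the Hal200 libraries were the closest to it. Gria4 rose by 0.81 ± 0.0775 (SE, adjusted p = 6.09e-08) in Hal1000 and 0.27 ± 0.0772 (SE, adjusted p = 0.0278) in Hal200, and stood at 0.12 and 0.048 on the bipolar scale. Gria1, the remaining AMPA gene, ranged over 8.99 to 10.5 TMM-scaled FPKM in control libraries and was called higher in the 5 groups other than Hal200.

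Kainate receptors combine the subunits of Grik1 to Grik3, which can form channels alone, with those of Grik4 and Grik5, which cannot. All 5 genes were higher in Hal1000, Blue1000, Blue200 and LED200, and 4 of 5 in LED1000 and in Hal200, while on the bipolar scale 0 to 2 were higher in a group and 0 were lower. Grik3 had the highest log2 fold change among called receptor genes in Hal1000, Hal200 and Blue1000. Grik3 stood at 9.94, 6.33 and 8.41 TMM-scaled FPKM in Hal1000, 5.78, 5.601 and 4.93 in Hal200, 9.59, 6.01 and 8.299 in Blue1000, 4.29, 7.46 and 7.93 in Blue200, 5.93, 4.78 and 3.798 in LED1000, 7.43, 5.11 and 6.66 in LED200, against 2.94, 2.63 and 3.31 in control libraries. All 18 light libraries lay above the control range, with a wide spread inside the groups. Grik3 rose by 1.48 ± 0.239 (SE, adjusted p = 5.61e-05) in Hal1000, 0.88 ± 0.237 (SE, adjusted p = 0.0253) in Hal200 and 0.71 ± 0.237 (SE, adjusted p = 0.0176) in LED1000. On the bipolar scale it was 0.78 in Hal1000 and 0.64 in Hal200, both called higher.

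Grik5 was the most abundant kainate gene per length. Grik5 had 52.6, 52.6 and 53.9 TMM-scaled FPKM in Hal1000, 44.5, 41.4 and 41.6 in Hal200, 55.8, 55.7 and 53.8 in Blue1000, 48.8, 52.4 and 54.3 in Blue200, 50.2, 50.5 and 47.4 in LED1000, 51.1, 50.3 and 53.5 in LED200, against 35.6, 35.7 and 34.2 in control libraries. All light libraries lay above the control range. Grik5 rose by 0.59 ± 0.0572 (SE, adjusted p = 6.31e-08) in Hal1000 and 0.27 ± 0.0571 (SE, adjusted p = 0.00593) in Hal200, and on the bipolar scale it was below 0 in the 5 groups other than Hal200 (-0.095 in Hal1000). Grik4 was at 0.668, 0.625 and 0.748 TMM-scaled FPKM in Hal1000, 0.556, 0.3703 and 0.537 in Hal200, 0.684, 0.562 and 0.706 in Blue1000, 0.625, 0.708 and 0.744 in Blue200, 0.546, 0.5097 and 0.406 in LED1000, 0.6897, 0.678 and 0.6898 in LED200, against 0.395, 0.3701 and 0.331 in control libraries. Only Hal200 library 2 overlapped the control range. Grik4 rose by 0.90 ± 0.174 (SE, adjusted p = 0.000229) in Hal1000 and 0.92 ± 0.174 (SE, adjusted p = 0.000186) in Blue200, and its difference was 0.42 ± 0.174 (SE, adjusted p = 0.125) in Hal200 and 0.42 ± 0.174 (SE, adjusted p = 0.0502) in LED1000. With bipolar scaling Grik4 was 0.21 (adjusted p = 0.304) in Hal1000 and 0.33 (adjusted p = 0.111) in Blue200. Grik1, a kainate subunit of OFF bipolar cells in several mammals, and Grik2 were higher in all 6 groups on the TMM scale, Grik1 by 0.85 ± 0.0862 (SE, adjusted p = 1.3e-07) in Hal1000, and on the bipolar scale Grik1 was called higher in 3 groups and Grik2 in 0.

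Delta receptors are postsynaptic proteins that bind secreted cerebellins. Grid1, which encodes one of them, was higher in the 5 groups other than Hal200, and was below 0 and not called on the bipolar scale in those 5 groups. Grid1 stood at 11.5, 11.4 and 11.6 TMM-scaled FPKM in Hal1000, 9.801, 9.51 and 8.797 in Hal200, 12.1, 11.3 and 12.9 in Blue1000, 9.902, 10.8 and 14.1 in Blue200, 11.4, 11.1 and 8.71 in LED1000, 13.2, 11.5 and 12.2 in LED200, against 7.78, 8.15 and 8.53 in control libraries. No light library overlapped the control range. Grid1 rose by 0.50 ± 0.116 (SE, adjusted p = 0.0013) in Hal1000 and stood at 0.20 ± 0.116 (SE, adjusted p = 0.273) in Hal200.

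NMDA receptors require the subunit of Grin1, joined by Grin2 subunits that bind glutamate or Grin3 subunits that bind glycine. Grin1 had the highest level per length of the glutamate receptor genes. Grin1 had 102, 94.03 and 94.7 TMM-scaled FPKM in Hal1000, 72.8, 65.7 and 64.1 in Hal200, 97.01, 97.6 and 95.02 in Blue1000, 77.3, 91.2 and 97.1 in Blue200, 92.5, 84.7 and 77.9 in LED1000, 87.9, 90.7 and 99.4 in LED200, against 57.1, 58.4 and 52.1 in control libraries. All light libraries lay above the control range, those of Hal200 least. Grin1 rose by 0.79 ± 0.0859 (SE, adjusted p = 2.74e-07) in Hal1000 and 0.27 ± 0.0855 (SE, adjusted p = 0.0439) in Hal200, and was 0.11 and 0.044 on the bipolar scale. Grin3a was at 1.75, 2.06 and 1.83 TMM-scaled FPKM in Hal1000, 1.49, 1.69 and 1.44 in Hal200, 1.72, 1.67 and 1.59 in Blue1000, 1.12, 1.86 and 2.08 in Blue200, 2.15, 1.89 and 1.399 in LED1000, 1.84, 1.499 and 2.31 in LED200, against 1.49, 0.952 and 0.764 in control libraries. Hal200 libraries 1 and 3, Blue200 library 1 and LED1000 library 3 overlapped the control range. Grin3a rose by 0.81 ± 0.236 (SE, adjusted p = 0.00675) in Hal1000 and 0.76 ± 0.236 (SE, adjusted p = 0.0104) in LED1000. Bipolar scaling gave 0.13 (adjusted p = 0.618) in Hal1000 and 0.26 (adjusted p = 0.331) in LED1000, neither called. Grin3b was low, at 0.074 to 0.325 TMM-scaled FPKM, and was not called.

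The Grin2 genes did not move together. Grin2b was the one called higher, in the 5 groups other than Hal200 on the TMM scale and in 0 on the bipolar scale, by 0.88 ± 0.142 (SE, adjusted p = 3.22e-05) in Hal1000. Grin2c, the most abundant of the 4 per length, was called in no group. Grin2c stood at 9.79, 11.6 and 10.2 TMM-scaled FPKM in Hal1000, 10.3, 9.48 and 9.79 in Hal200, 11.8, 10.9 and 12 in Blue1000, 7.28, 8.45 and 11.7 in Blue200, 12.04, 11.5 and 10.2 in LED1000, 6.36, 8.25 and 9.68 in LED200, against 9.18, 10.4 and 7.47 in control libraries. Control libraries spread widely, and libraries of every light group but Blue1000 overlapped them. Its log2 fold change was 0.23 ± 0.158 (SE, adjusted p = 0.242) in Hal1000 and -0.15 ± 0.159 (SE, adjusted p = 0.444) in LED200, and on the bipolar scale it was called lower in Hal1000 (-0.46), Blue200 (-0.57) and LED200 (-0.87).

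Grin2d and Grin2a were described after their values were seen. Grin2d encodes a subunit with slow closing that is prominent in the young brain. Grin2d had 4.56, 4.96 and 4.74 TMM-scaled FPKM in Hal1000, 3.605, 3.56 and 4.44 in Hal200, 5.07, 4.28 and 5.08 in Blue1000, 3.91, 4.46 and 4.25 in Blue200, 4.05, 3.67 and 3.61 in LED1000, 4.27, 3.83 and 4.67 in LED200, against 5.47, 4.22 and 3.83 in control libraries. Control libraries spread widely, and 1 of them was the highest of all libraries. Most light libraries lay inside the control range, and some of Hal200, LED1000 and LED200 lay below it. Its log2 fold change was 0.077 ± 0.124 (SE, adjusted p = 0.624) in Hal1000 and -0.22 ± 0.124 (SE, adjusted p = 0.258) in Hal200, and -0.61 and -0.44 on the bipolar scale. Grin2a encodes a subunit prominent in mature synapses. Grin2a was at 3.62, 2.44 and 2.95 TMM-scaled FPKM in Hal1000, 3.43, 3.14 and 2.95 in Hal200, 4.75, 3.92 and 4.28 in Blue1000, 0.924, 4.27 and 5.74 in Blue200, 2.83, 1.68 and 0.634 in LED1000, 3.59, 3.901 and 4.47 in LED200, against 2.43, 2.33 and 2.005 in control libraries. Blue200 library 1 and LED1000 libraries 2 and 3 lay below the control range, and the other light libraries lay above it. The test called Grin2a in no group, with 0.94 ± 0.491 (SE, adjusted p = 0.12) in Blue1000 and -0.39 ± 0.495 (SE, adjusted p = 0.528) in LED1000.

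**Figure D3:**
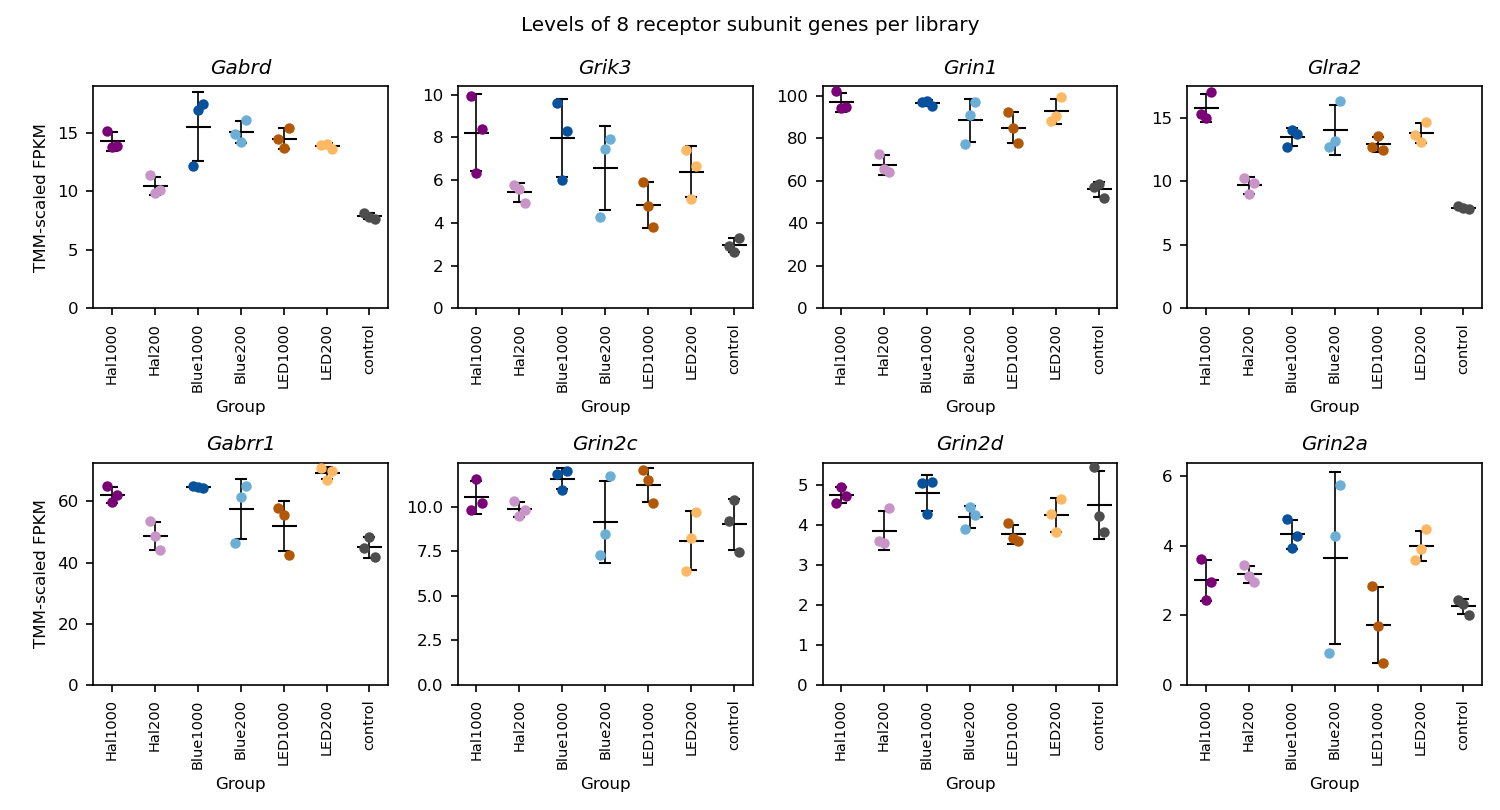
TMM-scaled FPKM (vertical axis) of 8 receptor genes in each library (points), with the mean and SD of each group (n = 3). On this scale Gabrd, Grik3, Grin1 and Glra2 lie above control in all 18 light libraries (on the bipolar scale Gabrd is called higher in 3 groups and Grin1 in 0). Most Grin2d values in light libraries lie inside the wide control range and none above it. Grin2a is lowest in Blue200 library 1 and LED1000 library 3.

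GABA-A receptors are chloride channels built from alpha and beta subunits with a gamma or delta subunit. Gabra3, which encodes an alpha subunit, was higher in all 6 groups. Gabra3 stood at 3.44, 3.24 and 3.297 TMM-scaled FPKM in Hal1000, 2.63, 2.37 and 2.29 in Hal200, 3.37, 3.39 and 3.17 in Blue1000, 2.73, 3.67 and 3.62 in Blue200, 2.92, 2.97 and 2.66 in LED1000, 3.46, 3.401 and 3.56 in LED200, against 1.82, 1.88 and 1.73 in control libraries. No light library overlapped the control range. Gabra3 rose by 0.88 ± 0.093 (SE, adjusted p = 2.06e-07) in Hal1000 and 0.43 ± 0.0928 (SE, adjusted p = 0.00723) in Hal200, and on the bipolar scale it was called higher in Hal1000, Blue1000, Blue200 and LED200. Gabra2 was called higher in Hal1000, Blue1000, Blue200 and LED200 and Gabra4 in those and LED1000, and neither was called on the bipolar scale. Gabra5, at 0.0808 to 0.607 TMM-scaled FPKM, was called in no group.

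Of the beta genes, Gabrb2 was called higher in Blue1000 and LED200 and Gabrb1 in those, Hal1000 and Blue200, and neither was called on the bipolar scale.

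The delta subunit, encoded by Gabrd, is found in receptors outside synapses. Gabrd had 15.2, 13.8 and 13.8 TMM-scaled FPKM in Hal1000, 11.3, 9.86 and 10.1 in Hal200, 12.2, 16.9 and 17.5 in Blue1000, 14.9, 14.2 and 16.1 in Blue200, 14.5, 13.7 and 15.4 in LED1000, 13.99, 14.02 and 13.6 in LED200, against 8.17, 7.81 and 7.66 in control libraries. All light libraries lay above the control range. Gabrd rose by 0.86 ± 0.112 (SE, adjusted p = 2.82e-06) in Hal1000 and 0.41 ± 0.112 (SE, adjusted p = 0.0248) in Hal200, and on the bipolar scale it was called higher in Blue1000, Blue200 and LED1000.

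Gabrg3, a gamma subunit, had one of the 4 highest fold changes in Blue1000 and LED200. Gabrg3 was at 3.798, 3.93 and 4.06 TMM-scaled FPKM in Hal1000, 4.01, 3.48 and 3.02 in Hal200, 5.23, 5.62 and 5.76 in Blue1000, 1.29, 4.58 and 4.87 in Blue200, 3.78, 2.82 and 1.18 in LED1000, 5.15, 4.01 and 4.84 in LED200, against 2.51, 2.095 and 2.26 in control libraries. Blue200 library 1 and LED1000 library 3 lay below the control range and all other light libraries above it. Gabrg3 rose by 1.27 ± 0.374 (SE, adjusted p = 0.0077) in Blue1000 and 1.03 ± 0.373 (SE, adjusted p = 0.0277) in LED200, while Blue200 stood at 0.64 ± 0.373 (SE, adjusted p = 0.155). Its values on the bipolar scale were 0.61 (adjusted p = 0.124) in Blue1000 and 0.32 (adjusted p = 0.451) in LED200, neither called. Gabrg1 was called higher in Blue1000, and not on the bipolar scale. Gabrq, the theta subunit and the most abundant of the epsilon, pi and theta genes per length, was low. Gabrq stood at 0.647, 0.393 and 0.876 TMM-scaled FPKM in Hal1000, 0.673, 0.418 and 0.988 in Hal200, 0.823, 0.882 and 0.695 in Blue1000, 0.5105, 0.841 and 1.32 in Blue200, 0.879, 0.554 and 0.325 in LED1000, 0.879, 0.446 and 0.754 in LED200, against 0.391, 0.6497 and 0.374 in control libraries. Libraries of every light group but Blue1000 overlapped or lay below the control range. Gabrq and Gabre were called in no group, with Gabrq at 0.44 ± 0.457 (SE, adjusted p = 0.44) in Hal1000.

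The rho subunits form the slow GABA receptors of bipolar cell terminals. Their 3 genes were higher in Hal1000, Blue1000, Blue200 and LED200, with 2 of 3 in LED1000 and 0 in Hal200, while on the bipolar scale their median was below 0 in all 6 groups (-0.19 in Hal1000 and -0.076 in Hal200). Gabrr1 had 64.9, 59.8 and 62 TMM-scaled FPKM in Hal1000, 53.5, 48.5 and 44.02 in Hal200, 64.99, 64.7 and 64.3 in Blue1000, 46.4, 61.3 and 65.1 in Blue200, 58, 55.5 and 42.5 in LED1000, 70.9, 67.02 and 69.8 in LED200, against 44.7, 48.5 and 41.8 in control libraries. Hal200 library 3, Blue200 library 1 and LED1000 library 3 overlapped the control range. Gabrr1 rose by 0.47 ± 0.115 (SE, adjusted p = 0.00197) in Hal1000 and stood at 0.11 ± 0.115 (SE, adjusted p = 0.556) in Hal200, and on the bipolar scale it was called lower in Hal1000 (-0.22), Blue200 (-0.24) and LED1000 (-0.30). Gabrr2, higher in Hal1000 and Blue1000 on the TMM scale, was called lower there on the bipolar scale, at -0.19 (adjusted p = 0.0175) and -0.18 (adjusted p = 0.0262).

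Glycine receptors join alpha subunits to the beta subunit, which binds the scaffold gephyrin. Glra2 was the most abundant alpha gene per length. Glra2 was at 15.3, 15.02 and 17.04 TMM-scaled FPKM in Hal1000, 10.3, 8.98 and 9.84 in Hal200, 12.7, 14.1 and 13.8 in Blue1000, 12.7, 13.2 and 16.3 in Blue200, 12.7, 13.6 and 12.5 in LED1000, 13.6, 13.1 and 14.7 in LED200, against 8.05, 7.896 and 7.79 in control libraries. All light libraries lay above the narrow control range. Glra2 rose by 0.9966 ± 0.0923 (SE, adjusted p = 3.81e-08) in Hal1000 and 0.29 ± 0.092 (SE, adjusted p = 0.0437) in Hal200, and on the bipolar scale it was called higher in Hal1000 (0.31) and not in Hal200 (0.065 (adjusted p = 0.668)).

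Glrb stood at 31.3, 30.01 and 30 TMM-scaled FPKM in Hal1000, 22.3, 21.3 and 21.9 in Hal200, 29.2, 29.3 and 26.9 in Blue1000, 26.7, 31.1 and 31.02 in Blue200, 30.7, 30.4 and 31.7 in LED1000, 28.8, 28.1 and 30.5 in LED200, against 17.7, 18.1 and 15.9 in control libraries. No light library overlapped the control range. Glrb rose by 0.85 ± 0.0696 (SE, adjusted p = 9.27e-09) in LED1000 and 0.34 ± 0.0694 (SE, adjusted p = 0.00507) in Hal200, and on the bipolar scale it was called higher in Blue200 and LED1000. Glra4 had 2.35, 2.62 and 2.003 TMM-scaled FPKM in Hal1000, 2.23, 1.58 and 2.52 in Hal200, 2.801, 2.91 and 2.6 in Blue1000, 1.17, 1.57 and 2.32 in Blue200, 2.75, 1.58 and 1.17 in LED1000, 2.46, 2.42 and 2.94 in LED200, against 1.42, 1.63 and 0.866 in control libraries. The control libraries spread widely, and 5 light libraries lay inside their range. Glra4 rose by 1.09 ± 0.32 (SE, adjusted p = 0.00744) in Blue1000 and 0.9983 ± 0.319 (SE, adjusted p = 0.0132) in LED200. Its values on the bipolar scale were 0.44 (adjusted p = 0.221) in Blue1000 and 0.30 (adjusted p = 0.431) in LED200, neither called. Glra3 was called higher in Hal1000, Blue1000 and LED200, and Glra1 in Blue1000, and neither was called on the bipolar scale.

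Between the halogen levels, 17 of 40 receptor genes were higher in Hal1000 than in Hal200 (background 16.5%) and 0 were lower (background 18.4%), while on the bipolar scale 0 were higher and 2 were lower (among them Grin2c at -0.37; background 1.44% higher and 49.1% lower). Among the 4 largest were Glra2 at 0.70 ± 0.0915 (SE, adjusted p = 7.24e-06), Gria3 at 0.54 ± 0.0778 (SE, adjusted p = 2.17e-05) and Gria4 at 0.53 ± 0.077 (SE, adjusted p = 2.49e-05). Rod genes summed to 869 to 1098 CPM in Hal1000, against 36130 to 60820 CPM in Hal200, and their part in these differences was not tested.

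For blue light, 0 receptor genes were called between Blue1000 and Blue200 by edgeR or DESeq2 (background 0% higher and 0.0125% lower), and 3 had an unadjusted p under 0.05, all higher in Blue1000. On the bipolar scale 0 were called there too (background 0% higher and 0.00625% lower). For the LED lamp, 0 were called between LED1000 and LED200 by edgeR (background 0.05% higher and 0.0187% lower), 15 had an unadjusted p under 0.05, of which 14 were lower in LED1000, and DESeq2 called 2 lower. The share of all genes that DESeq2 called was not computed for either lamp, and the backgrounds are those of edgeR. On the bipolar scale 1 was higher, Grin2c, and 0 were lower (background 0.369% and 0.00625%). The closest to the threshold was Grik1, at -0.43 ± 0.0855 (SE, adjusted p = 0.0619).

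The level effect of halogen exceeded the mean of the level effects of blue and LED for 15 receptor genes (background 11.6%) and fell short of it for 0 (background 13.2%), while on the bipolar scale 0 were higher and 2 lower (background 0.843% and 47.5%). The largest was Glra2, at 0.78 ± 0.112 (SE, adjusted p = 4.17e-05). The number was 23 without the 3 lens-rich libraries (background 13.4%), and 24 without Blue200 library 1, alone (12.9%) or together with LED1000 library 3 (14.2%).

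Across lamps at level 200, 21 receptor genes were lower in Hal200 than in the mean of Blue200 and LED200 (background 18.3%) and 0 were higher (background 20.3%), whereas on the bipolar scale 0 were lower and 3 were higher (background 1.43% and 50%). Gabra3 was at -0.49 ± 0.0812 (SE, adjusted p = 9.53e-05) there. At level 1000, 0 were called between Hal1000 and the mean of Blue1000 and LED1000 by edgeR or DESeq2 (background by edgeR 0.0125% higher and 0% lower), nor on the bipolar scale (0.00625% and 0%). The one gene with an unadjusted p under 0.05 was Glra2, at 0.26 ± 0.0779 (SE, adjusted p = 0.761). The test of any difference between the 7 groups called 28 of 40 (background 54.5%), and 6 on the bipolar scale (background 62.2%).

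Shares of a subunit in the summed FPKM of its family do not depend on how libraries are scaled. The shares of a family add up to a fixed total, so they are not separate results. A lower share need not mean a lower level. Of 33 shares, 9 differed between the 18 light libraries and the 3 control libraries (two-sided exact permutation test over 1330 arrangements, adjusted over the 33), 3 of them higher and 6 lower. Gabra2 took 13.5% ± 1.75 in light libraries, against 17.9% ± 1.77 in control libraries (SD; exact permutation p = 0.00226, adjusted p = 0.0186) of the alpha subunits. Its light libraries reached 15.99%, inside the control range at its lower end. Gabra3 took 2.45% ± 0.157 in light libraries, against 2.77% ± 0.108 in control libraries (SD; exact permutation p = 0.00526, adjusted p = 0.0347) of them. The Gabra3 share reached 2.82% in a Hal200 library, above the lowest control library at 2.68%. As levels on the TMM scale, Gabra2 was called higher in 4 groups against control and Gabra3 in 6.

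Among gamma and delta subunits, Gabrd took 12.7% ± 1.26 in light libraries, against 10.7% ± 0.634 in control libraries (SD; exact permutation p = 0.0128, adjusted p = 0.0469). Its light libraries, from 10.2% to 15.3%, overlapped the control range. Among the Grin2 genes, Grin2b took 15.7% ± 1.95 in light libraries, against 11.1% ± 1.86 in control libraries (SD; exact permutation p = 0.00226, adjusted p = 0.0186). Grin2d took 20.6% ± 2.46 in light libraries, against 25.4% ± 3.14 in control libraries (SD; exact permutation p = 0.0105, adjusted p = 0.0434). The Grin2b share was thus higher and the Grin2d share lower in light libraries, with both ranges overlapping control. Gria2 took 40.9% ± 2.08 in light libraries, against 44.5% ± 2.17 in control libraries (SD; exact permutation p = 0.00902, adjusted p = 0.0425) of the AMPA subunits. Light libraries reached 43.7% for Gria2, above the lowest control library at 42.01%, and the Blue1000 mean was 43.2%. Grik5 took 48.2% ± 2.37 in light libraries, against 52.4% ± 1.002 in control libraries (SD; exact permutation p = 0.00677, adjusted p = 0.0372) of the kainate subunits. The Grik5 mean in LED1000 was 51.7%, near that of control, and an LED1000 library at 53.3% lay inside the control range of 51.6% to 53.5%. With summed counts in place of FPKM, 7 shares passed, and those of Gria2 (adjusted p = 0.0844, exact permutation test) and Gabrd (adjusted p = 0.0558) did not. The share of Grik3, at 6.18% ± 1.23 in light libraries, against 4.41% ± 0.612 in control libraries (SD; exact permutation p = 0.0263, adjusted p = 0.0868), did not pass. With one light group of 3 libraries against control, the smallest possible p is 0.1.

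The number of shares that passed was 5 without the 3 lens-rich libraries, 5 without the 3 in-between libraries and 5 without the Hal200 libraries. It was 0 without control library 1, 0 without control library 2 and 4 without control library 3. Leaving out a control library, as the lens-rich set also does, leaves fewer arrangements and a larger smallest p. The fall in these counts therefore cannot be read as dependence on those libraries alone.

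**Figure D4:**
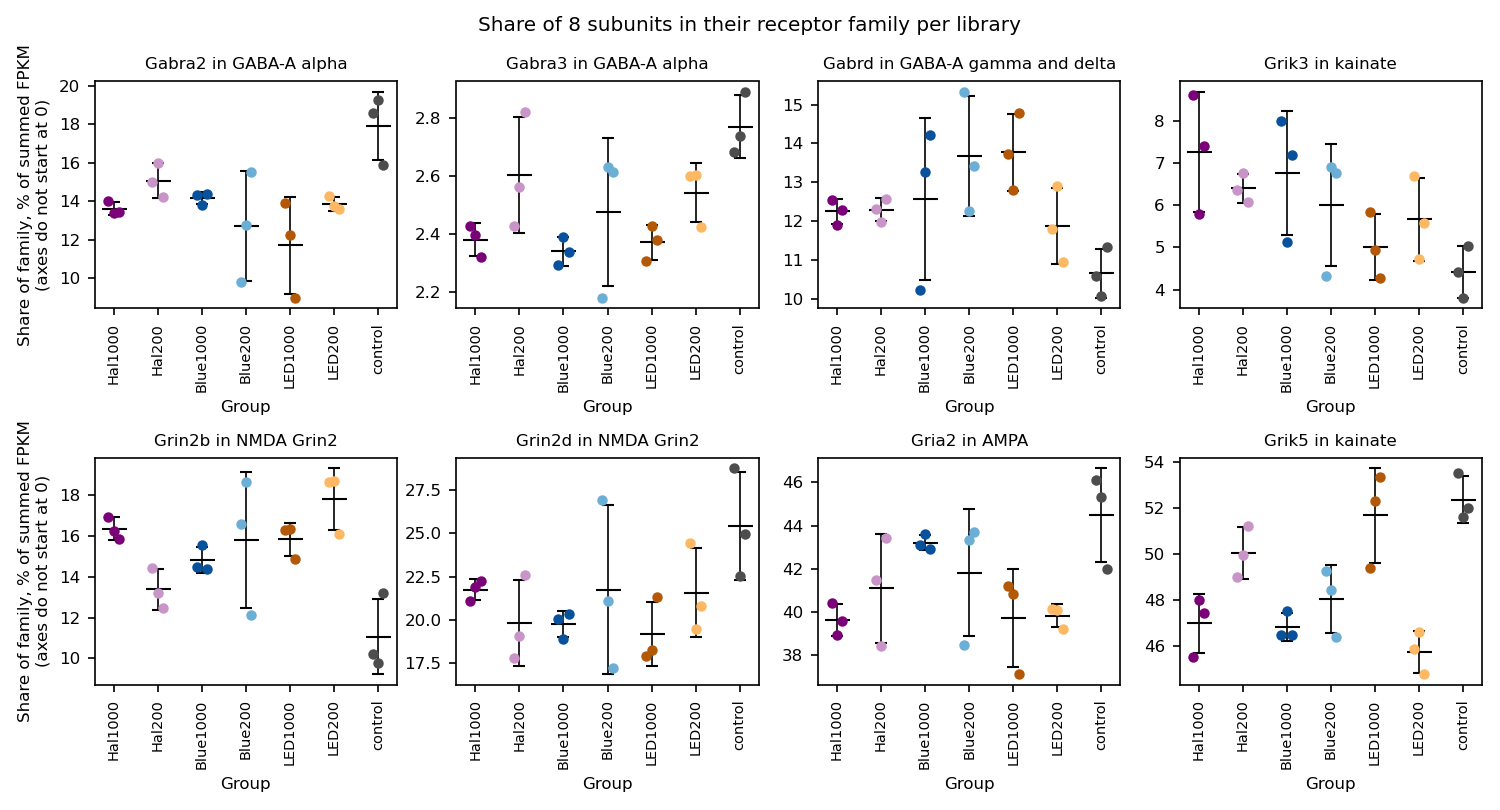
Share of 8 subunits in the summed FPKM of their receptor family (vertical axis, percent, not starting at 0) in each library (points), with the mean and SD of each group (n = 3). The mean Gabra2 share is 13.5% in light libraries and 17.9% in control libraries, and the mean Gabrd share is 12.7% in light libraries and 10.7% in control libraries.

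Summed over the 18 glutamate receptor genes, the deposited FPKM was 329.5 ± 47.1 FPKM in the 18 light libraries, against 187 ± 8.55 FPKM in control libraries (SD; exact permutation p = 0.000752, adjusted p = 0.00103 over 11 values). Summed over GABA and glycine receptor genes it was 454 ± 68.5 FPKM in the 18 light libraries, against 247 ± 12.7 FPKM in control libraries (SD; exact permutation p = 0.000752, adjusted p = 0.00103 over 11 values). That p is the smallest the design can give. Both sums were higher in light libraries on this scale, which is relative to all RNA. Summed over the 4 Grin2 genes it was 21.4 ± 3.09 FPKM in the 18 light libraries, against 15.6 ± 1.604 FPKM in control libraries (SD; exact permutation p = 0.00376, adjusted p = 0.00414 over 11 values), and that difference did not pass with TMM-scaled FPKM (adjusted p = 0.0812, exact permutation test). The glutamate sum averaged 354.9 ± 7.17 FPKM in Hal1000, 242 ± 21.2 in Hal200, 368 ± 2.98 in Blue1000, 340.6 ± 40.1 in Blue200, 320.4 ± 25.6 in LED1000 and 350.7 ± 19.4 in LED200 (SD, n = 3 each). The ratio of the GABA and glycine sum to the glutamate sum was 1.38 ± 0.0425 in the 18 light libraries, against 1.32 ± 0.0207 in control libraries (SD; exact permutation p = 0.0421, adjusted p = 0.0421 over 11 values). That difference did not pass without the lens-rich libraries (adjusted p = 0.0719) or the in-between libraries (adjusted p = 0.0576), nor without control library 1, 2 or 3 (adjusted p = 0.142, 0.0579 and 0.105; exact permutation tests). It also did not pass without Hal1000 library 1, Hal200 library 1 or Blue1000 library 2 (adjusted p = 0.0509 each; exact permutation tests), Blue200 library 2 or LED1000 library 3 (0.0526 each), or LED200 library 3 (0.0518).

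A pair of light libraries lay furthest below their mates for receptor genes. Blue200 library 1 was the lowest of its group for 37 of 40 receptor genes, with a median log2 ratio to its mates of -0.431, and LED1000 library 3 for 35, with -0.398. In both, genes under 2000 bases were above their mates (median log2 ratio 0.218 and 0.235) and genes over 4000 bases were below (-0.197 and -0.192). Over the 40 receptor genes, which share the libraries, the Spearman correlation of gene length with the log2 ratio was 0.129 in Blue200 library 1 and 0.0857 in LED1000 library 3. Grin2a was at -2.44 and -1.83 and Gabrg3 at -1.88 and -1.48 in them, relative to their mates. Without both libraries the genes called higher numbered 34 in Blue200 (background 26.2%) and 31 in LED1000 (26.8%). Control library 3, which enters every comparison with control, was the lowest of its group for 30 of 40 receptor genes. Its median log2 ratio to its mates was -0.143.

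**Figure D5:**
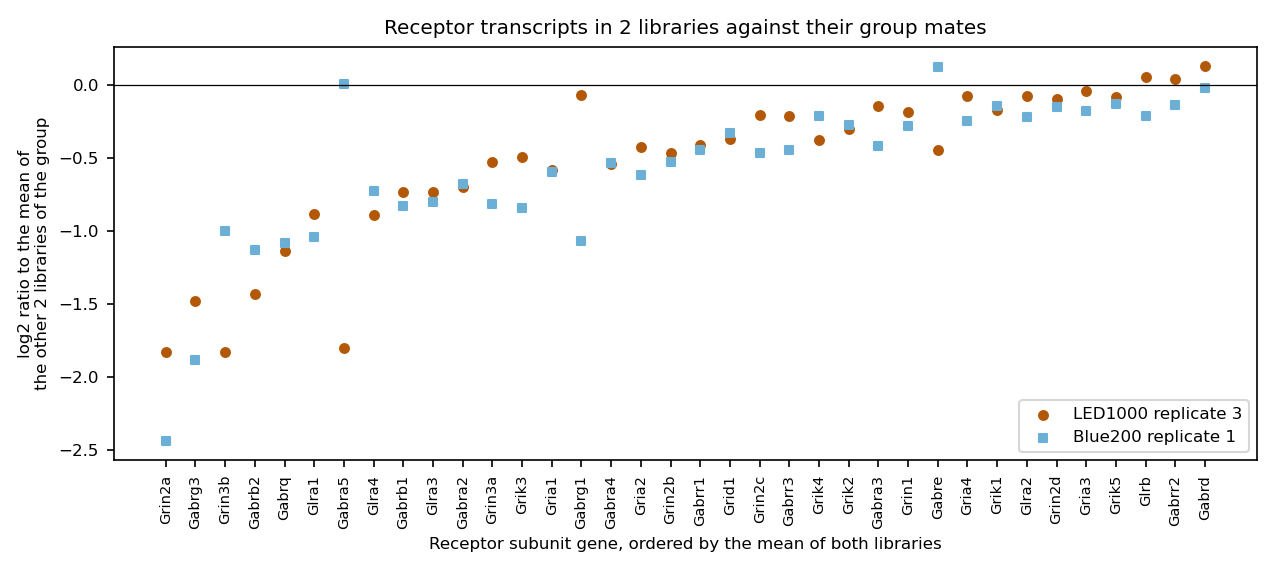
Log2 ratio of Blue200 library 1 and of LED1000 library 3 to the mean of the other 2 libraries of their group, for 36 receptor genes. Most ratios lie below 0, and Grin2a is at -2.44 and -1.83.

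Genes that act beside the receptors were read from 5 lists. Of all tested genes, 27.3% were higher and 26.8% lower in Hal1000, and 7.25% and 4.6% in Hal200, against 4.14% and 57.4%, and 1.81% and 19.9%, on the bipolar scale. Of 32 tested auxiliary subunits and secreted partners of glutamate receptors, 29 were higher and 1 lower in Hal1000, and 14 higher and 0 lower in Hal200, against 7 higher and 3 lower, and 2 and 0, on the bipolar scale. C1ql1, a secreted C1q-like protein, rose by 1.20 ± 0.089 (SE, adjusted p = 2.3e-09) in Hal1000, and Cbln1, the cerebellin that binds delta receptors, by 1.33 ± 0.11 (SE, adjusted p = 6.9e-09). C1ql2 rose by 0.88 ± 0.077 (SE, adjusted p = 1.8e-08), while C1ql3 fell, at -2.87 ± 0.2 (SE, adjusted p = 8e-10), and was not called in Hal200 (-0.25 ± 0.18 (SE, adjusted p = 0.38)). C1ql1 was 0.51 on the bipolar scale, Cbln1 0.64 and C1ql3 -3.55 in Hal1000, all called, and C1ql2 was 0.20 (adjusted p = 0.09).

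Of 26 postsynaptic genes of glutamate synapses, 17 were higher and 4 lower in Hal1000, and 4 higher and 1 lower in Hal200, against 2 and 9, and 0 and 4, on the bipolar scale (background 27.3% and 26.8%, 7.25% and 4.6%, 4.14% and 57.4%, 1.81% and 19.9%, in that order). The 4 lower in Hal1000 were Dlg1, Dlg4, Homer1 and Homer3, which encode scaffold proteins. Dlg4, which encodes PSD-95, a protein also known from photoreceptor terminals, was at -1.20 ± 0.1 (SE, adjusted p = 1.4e-08) and Dlg1 at -1.21 ± 0.083 (SE, adjusted p = 8.3e-10) in Hal1000. Camk2b, a kinase subunit, rose by 0.78 ± 0.071 (SE, adjusted p = 3.2e-08) and Dlgap3 by 0.89 ± 0.079 (SE, adjusted p = 2.4e-08). Dlg4, Dlg1 and Dlgap3 were called in the same directions on the bipolar scale, at -1.88, -1.90 and 0.20, and Camk2b was 0.093 (adjusted p = 0.25).

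Of 24 postsynaptic genes of inhibitory synapses, 15 were higher and 4 lower in Hal1000, and 5 and 0 in Hal200, against 2 and 11, and 0 and 2, on the bipolar scale, where 57.4% of all tested genes were lower in Hal1000. Nrxn2 rose by 0.97 ± 0.07 (SE, adjusted p = 1.5e-09), Insyn1 by 0.94 ± 0.088 (SE, adjusted p = 3.9e-08) and Plcl2 by 0.81 ± 0.098 (SE, adjusted p = 1.1e-06) in Hal1000. With bipolar scaling Nrxn2 was 0.28 and called, and Insyn1 0.26 (adjusted p = 0.055) and Plcl2 0.12 (adjusted p = 0.41) were not. Of 32 genes of transmitter synthesis and transport, 20 were higher and 5 lower in Hal1000, and 7 and 2 in Hal200, against 3 and 12, and 2 and 5, on the bipolar scale. Slc17a7, the vesicular glutamate transporter of photoreceptors and bipolar cells, was at -1.48 ± 0.09 (SE, adjusted p = 1.8e-10), and Slc1a7, a glutamate transporter, at -1.21 ± 0.096 (SE, adjusted p = 5.4e-09). Slc6a6, the taurine transporter, was at -1.66 ± 0.15 (SE, adjusted p = 4.6e-08). All 3 were also called lower on the bipolar scale. Of 12 metabotropic receptor genes and partners, 8 were higher and 0 lower in Hal1000, and 5 and 0 in Hal200, against 1 and 2, and 1 and 0, on the bipolar scale. Grm7 rose by 0.84 ± 0.099 (SE, adjusted p = 8.2e-07) and Grm8 by 0.96 ± 0.12 (SE, adjusted p = 1e-06), both metabotropic glutamate receptors, and Kctd8, a GABA-B receptor partner, by 0.88 ± 0.093 (SE, adjusted p = 2.2e-07). Their values on the bipolar scale were 0.15 (adjusted p = 0.18), 0.27 (adjusted p = 0.052) and 0.19 (adjusted p = 0.2), none called.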

How the data were processed

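Total RNA of rat retina was sequenced in 21 libraries, from a VAHTS Universal V6 library kit as the labels' protocols state. The deposited count table holds raw counts per gene. The deposited FPKM table was made by the authors and equals count over library total over 1 length per gene (largest deviation 1.5e-11 bases). R 3.2.0 is named in the submitters' processing notes. Aligner, counter, strand setting and genome build were not given in the sources used here, so reads of overlapping or antisense genes cannot be told apart.

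Counts were fitted with edgeR 4.0.16 in R 4.3.3 (limma 3.58.1): TMM scaling, filterByExpr with a minimum count of 10 and a minimum total of 15, 1 mean per group over 21 libraries, robust quasi-likelihood F test, Benjamini-Hochberg adjustment over 16006 genes in each comparison and a threshold of 0.05. The SE is the absolute log2 fold change over the square root of F. Levels per library are FPKM on TMM-scaled library sizes, and sums use the deposited FPKM. Shares and sums were tested by two-sided exact permutation. The scripts were checked on simulated data. Total counts were 30404774 to 35437448 per library, and the SE of a gene also depends on the spread between libraries.

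Alternatives were DESeq2 1.42.0, its size factors, no filter, the compared groups alone, a replicate block, scaling to bipolar genes, and leaving out libraries. Per-library values are given for receptor genes averaging 1 CPM or more that were among the 4 largest called changes against control or between halogen levels, or the most abundant of their family per length. For each list, up to 4 called genes with the smallest p for any difference are named. Members and lists were chosen with earlier results of these data known. Some of the genes these rules name are not reported here, though they stay in the fits and counts.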

Additional observations from a re-analysis of the deposited data

Results flagged for a closer look

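For 15 receptor genes the effect of level under halogen light (Hal1000 over Hal200) exceeded the mean of the level effects under blue and LED light, by the interaction test of edgeR over 16006 genes (log2 difference ± SE). Among them, Glra2 at 0.78 ± 0.112 (adjusted p = 4.17e-05), Grik4 at 0.77 ± 0.21 (adjusted p = 0.0104) and Grik1 at 0.66 ± 0.105 (adjusted p = 0.000118) were the largest. Gabra3 at 0.60 ± 0.113 (adjusted p = 0.000563), Gria4 at 0.59 ± 0.0942 (adjusted p = 0.000126) and Gria3 at 0.56 ± 0.095 (adjusted p = 0.000215) made up the next set. Grin1 at 0.52 ± 0.105 (adjusted p = 0.00106), Gabrr1 at 0.48 ± 0.141 (adjusted p = 0.0171) and Glrb at 0.46 ± 0.0845 (adjusted p = 0.000444) made up the middle set. Gabrr2 at 0.42 ± 0.0911 (adjusted p = 0.0021), Gabrd at 0.40 ± 0.135 (adjusted p = 0.0372) and Grik5 at 0.31 ± 0.0697 (adjusted p = 0.00297) made up the smallest. With libraries scaled to the bipolar gene list, none of the 15 was called in this direction, and Grik5 was called lower. Rod genes summed to 869 to 1098 CPM in Hal1000 and 36130 to 60820 CPM in Hal200, and their part in the difference was not tested. With 3 libraries a group, no test for a single outlying library was applied.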

How the results depend on the processing

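Under bipolar scaling the receptor genes called higher and lower numbered 4 and 4 in Hal1000, 2 and 1 in Hal200, 5 and 2 in Blue1000, 6 and 3 in Blue200, 4 and 2 in LED1000 and 3 and 2 in LED200, against control. They numbered 0 and 2 in Hal1000 against Hal200, 1 and 0 in LED1000 against LED200, 3 and 0 in Hal200 against the mean of Blue200 and LED200, 0 and 2 in the difference of level effects, and 6 in the test of any difference. It shifts all genes by its own construction. Values of the receptor genes reported that were called on either scale and changed sign there, against control, for the difference of level effects and, for Grin2c, between the halogen levels, follow. In Hal1000, the bipolar-scaled log2 values were Gabra4 -0.032, Gabrr1 -0.22, Gabrr2 -0.19, Gabrr3 -0.096, Glra3 -0.047, Gria2 -0.19, Grid1 -0.19, Grik5 -0.095, Grin2c -0.46 and Grin2d -0.61. In Blue1000, the bipolar-scaled log2 values were Gabrr1 -0.13, Gabrr2 -0.18, Grid1 -0.093, Grik5 -0.010, Grin2d -0.57 and Grin3a -0.015. In Blue200, the bipolar-scaled log2 values were Gabra2 -0.053, Gabrr1 -0.24, Gabrr2 -0.14, Gria2 -0.056, Grid1 -0.088, Grik2 -0.088, Grik5 -0.031 and Grin2c -0.57. In LED1000, the bipolar-scaled log2 values were Gabra4 -0.11, Gabrr1 -0.30, Gabrr2 -0.090, Gria1 -0.074, Grid1 -0.16, Grik1 -0.018 and Grik5 -0.014. In LED200, the bipolar-scaled log2 values were Gabra2 -0.016, Gabrr1 -0.084, Gabrr2 -0.10, Gria2 -0.18, Grid1 -0.11 and Grik5 -0.16. For the difference of level effects, they were Gabrd -0.13, Gabrr1 -0.049, Gabrr2 -0.10, Glrb -0.070, Grik5 -0.22 and Grin1 -0.0087, and for Hal1000 against Hal200, Grin2c -0.37. For Hal200 against control the number higher was 0 with only the compared groups fitted, 6 without the 3 in-between libraries and 19 without Blue200 library 1 and LED1000 library 3, the last alternative being chosen after seeing the data, as were those without the Hal200 libraries and with TMM-scaled FPKM. The difference of level effects gave 23 without the 3 lens-rich libraries and 24 without Blue200 library 1 and LED1000 library 3. DESeq2 called 2 lower in LED1000 against LED200, and 1 was lower there and 1 in LED1000 against control without the lens-rich libraries. The share of all genes called lower was not computed for these fits. Shares that passed numbered 5 without the lens-rich, the in-between or the Hal200 libraries. The ratio difference was 0.0497, 0.0587 and 0.055 without the lens-rich libraries, the in-between libraries, and Blue200 library 1 with LED1000 library 3, none past the threshold, and the Grin2 sum difference was 3.22 with TMM-scaled FPKM (adjusted p = 0.0812, exact permutation test) and 5.83 with deposited FPKM (adjusted p = 0.00414). The cause of these changes was not tested.

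Leaving out each library in turn gave 27 to 31 in Hal1000, 2 to 14 in Hal200, 30 to 35 in Blue1000, 23 to 34 in Blue200, 16 to 27 in LED1000 and 27 to 33 in LED200 higher against control. The background was 1.95% at 2 and 7.19% to 8.72% at 14 in Hal200. At the low and high ends it was 26.3% and 25.1% in Blue200, and 25.5% and 25% in LED1000. It was not computed for the other groups. The ranges were 13 to 21 in Hal1000 against Hal200, 16 to 24 lower and 0 to 1 higher in Hal200 against the mean of Blue200 and LED200, 0 to 1 lower in LED1000 against LED200, 0 to 1 lower in LED1000 against control, 13 to 24 in the difference of level effects, and 0 to 10 shares. For the difference of level effects the background was 8.28% at 13 and 12.9% at 24. For the other gene counts in these ranges it was not computed. The 0 shares came with a control library left out, where the exact test has a larger smallest p. The ratio difference ranged over 0.0479 to 0.0685. The replicate block gave 29, 8, 33, 27, 20 and 31 genes higher against control in Hal1000, Hal200, Blue1000, Blue200, LED1000 and LED200. Its background was 5.72% in Hal200, 26.4% in Blue200 and 26.8% in LED1000, and was not computed for the others. Same-numbered libraries did not deviate together: 14 of 63 pairs had a correlation over 0.1 (-0.506 to 0.455), and 5 of 21 libraries correlated best with their own number, so the numbers were not taken as pairs. DESeq2, its size factors in edgeR and no filter gave no change of sign, but some calls were lost. In that order they gave 14, 8 and 8 genes higher in Hal200 against control (background 8.99%, 6.66% and 5.66%). In LED1000 against control they gave 20, 20 and 21 (background 27%, 25.9% and 22.7%). Depth limits Gabra6 and Gabrp, which were not tested.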
